A study of Mus musculus with 35 samples.

Results

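The Ifi200 genes and Aim2 make up the mouse PYHIN family, and 10 of them were followed here: Aim2, Ifi203, Ifi204, Ifi205, Ifi207, Ifi208, Ifi209, Ifi211, Ifi213 and Mndal. They were chosen by gene symbol, through the Ensembl identifiers of the count table, and are 10 of its 53379 rows. All 10 were measured, and none was at 0 in any of the 34 libraries used. RNA-seq libraries were made from orthotopic pancreatic tumors of T110299 (a cell line from a mouse model of pancreatic cancer) and from the spleens of tumor-bearing mice. The hosts were wild-type C57BL/6 mice, age- and sex-matched, and every group carried tumors of this line. Treated mice received 50 µg poly(I:C), a synthetic double-stranded RNA, in a complex with polyethylenimine (poly(I:C)c) on days 18 and 20 of tumor growth, while control mice, called untreated, received glucose by the labels' treatment protocol and are described in the study's account of the sequencing as left without treatment. CD11b+ cells were sorted into Ly6Clow Ly6G+ polymorphonuclear myeloid-derived suppressor cells (PMN-MDSC) and Ly6Chigh Ly6G- monocytic ones (M-MDSC), whereas bulk tumor of untreated mice was lysed without sorting. Each group held 4 libraries, except PMN-MDSC from spleens and M-MDSC from tumors of treated mice with 3 each. Libraries are named below by the running number of their column in the table. By the titles, the same mice gave cells of both types and from both organs, and the comparisons between cell types and organs treat their libraries as independent.

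PYHIN proteins typically join a pyrin domain, which binds other pyrin domains, to HIN domains, which can bind DNA, although not every member holds both. Aim2 detects double-stranded DNA in the cytosol and recruits the adaptor Pycard and caspase-1 into an inflammasome, the complex that matures interleukin-1β and interleukin-18. The Ifi200 genes are known for their induction by interferons. Ifi204 (p204) has been linked to DNA recognition upstream of the adaptor STING, and Ifi205 (p205) to the transcription of Pycard, while the roles of several other members are less well described.

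On GRCm38 the 10 genes lay within 680.9 kb of chromosome 1, from Aim2 (chr1:173350879-173466040, plus strand) to Ifi205 (chr1:174011998-174031810, minus strand). Between them came Ifi213 (chr1:173566283-173599274), Ifi209 (chr1:173630917-173647928), Ifi208 (chr1:173673675-173698395), Ifi207 (chr1:173723427-173741747), Ifi204 (chr1:173747293-173766943), Mndal (chr1:173849126-173942491), Ifi211 (chr1:173896345-173913046) and Ifi203 (chr1:173920407-173942672). Ifi209 and Ifi208 lie on the plus strand like Aim2, and the others on the minus strand. Exons of Mndal and Ifi203 overlap on the same strand, over 4.27% of the exon length of Mndal (with Gm38050 included) and 0.552% of that of Ifi203.

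A RefSeq table of promoter windows (GRCm38.p6), each with 250 bases before and 50 after a gene start, held entries for 9 of the 10 members and none was matched for Ifi204. The windows were searched on both strands for GAAANNGAAA, the core of the interferon-stimulated response element. Of the 9 members, 7 had at least 1 match (all but Aim2 and Ifi209), against 3.99% of the 27025 genes in the table (3.44% of 32851 windows). The matches are shown with 10 bases on either side, 5′ to 3′ on the gene's own strand, with the matching letters in capitals, because they show how closely the members resemble each other there.
Ifi213: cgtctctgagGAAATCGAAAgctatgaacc
Ifi208: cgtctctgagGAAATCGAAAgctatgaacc
Ifi207: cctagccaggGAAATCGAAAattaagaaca
Mndal: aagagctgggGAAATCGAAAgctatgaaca
Ifi203: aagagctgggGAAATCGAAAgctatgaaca
Ifi211: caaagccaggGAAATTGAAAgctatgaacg
Ifi205: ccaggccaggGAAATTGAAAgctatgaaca
They lie at chr1:173599326-173599355 for Ifi213, chr1:173673597-173673626 for Ifi208 (plus strand), chr1:173741831-173741860 for Ifi207, chr1:173880204-173880233 for Mndal, chr1:173942508-173942537 for Ifi203, chr1:173913064-173913093 for Ifi211 and chr1:174031870-174031899 for Ifi205, the others on the minus strand. The match began 35 to 73 bases before the start of the RefSeq window's gene model in 6 of them and 134 bases before it in Ifi205, which had a second match on the other strand 23 bases after the start. The RefSeq starts of Mndal and Aim2 lie well inside the GENCODE ranges given above. Mndal and Ifi203 had 2 windows each, of which the second of Ifi203 held no match and that of Mndal a match on the other strand. The 30 letters were identical between Ifi213 and Ifi208, and also between Mndal and Ifi203. Because the stretches resemble each other, the 7 members with a match are not independent occurrences beside the share of all genes.

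Ifi209 had no match, and its stretch most like that of Ifi213 is shown for comparison, with the corresponding letters in capitals.
Ifi209: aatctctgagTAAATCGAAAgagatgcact
This stretch (chr1:173630770-173630799, plus strand) shared 23 of 30 letters with Ifi213 and differed within the motif by G11T, counted from 1 at the 5′ end of the printed letters with the base of Ifi213 first. Another interferon-response motif, TTCNNNGAA (the same on both strands), matched in 0 of the 9 members and in 9.55% of all genes. A match describes letters in these windows and is not evidence of binding.

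Related genes can share reads. Of all stretches of 50 letters in the annotated transcripts of Ifi211, 72.8% also occurred in a transcript of another gene, most of them in Ifi205, so its counts are uncertain. The share was 33.7% for Ifi209 (mainly with Ifi214), 20.8% for Ifi208 (mainly with Ifi213), 20% for Ifi204, 19.6% for Mndal, 18.6% for Ifi205, 15.6% for Ifi213, 12.2% for Ifi203 and 7.29% for Ifi207. Aim2 shared 0.628%. How the counting treated reads that match several genes is not given in the sources used here.

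Sorted libraries held 793070 to 4357105 counts and bulk tumor 3771590 to 8886115. In spleen, all 8 neutrophil markers were detected in every PMN-MDSC library, and their summed level was 16540 to 29040 CPM (counts scaled to 1 common library total) untreated and 26780 to 46680 CPM treated. PMN-MDSC from tumors of untreated mice held less of them, 1029 to 3858 CPM with 7 or 8 of 8 detected, and more of 6 macrophage markers, 9749 to 13300 CPM, than M-MDSC from the same tumors (3369 to 8319 CPM). The name PMN-MDSC is kept for them as the label of the sort. Of epithelial markers, sorted libraries held at most 616.8 CPM (an untreated tumor PMN-MDSC library). Some libraries were set apart after the data were seen: library 1 (untreated spleen PMN-MDSC) with 1303 CPM of macrophage and 1108 CPM of monocyte markers, library 9 (treated spleen PMN-MDSC) with the most neutrophil markers and the lowest summed PYHIN level of its group, library 24 (untreated tumor M-MDSC) with the fewest counts, and library 28 (treated tumor M-MDSC) with 28600 CPM of macrophage markers. Results that rest on them are given with and without them. Libraries 1 and 9 held the highest untreated and the lowest treated summed PYHIN level in spleen PMN-MDSC (565.9 and 1135 CPM). Leaving both out therefore had to widen the difference of the sums, and calls gained that way are no separate support.

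The question of the first comparison is which PYHIN genes differed between poly(I:C)c-treated and untreated mice. In spleen PMN-MDSC, 6 of the 9 members tested were higher in treated mice: Ifi213, Ifi209, Ifi208, Ifi207, Ifi204 and Ifi211. Of all 7261 genes tested there, 6.1% were higher, at a Benjamini-Hochberg adjusted p under 0.05 in edgeR's quasi-likelihood test. The median log2 fold change was 3.39 over the members tested and 0.01 over all genes. Genes were tested when they had a mean of at least 25 counts, which Ifi205 did not reach. Ifi208 and Ifi211 reached it through their treated libraries alone and so had to be higher there, and 4 of the 7 members that reached it in both groups were called.

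Ifi204, the member with the most counts, stood at 171.7, 92.6, 198.8 and 164.7 CPM in untreated libraries 1, 5, 17 and 21 of spleen PMN-MDSC, and at 575.7, 1831 and 1546 CPM in treated libraries 9, 25 and 29. All treated libraries were above all untreated ones, with library 9 the lowest of the treated. The log2 fold change was 3.39 ± 0.42 (SE, 4 against 3 libraries; adjusted p = 0.00327 in edgeR).

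Ifi208 was low without treatment, at 3.18, 2.99, 3.05 and 6.74 CPM (6 to 21 counts), and reached 103.1, 389.1 and 319.0 CPM. The groups were far apart, and its log2 fold change was 6.37 ± 0.54 (adjusted p = 0.00126 in edgeR). Ifi213 stood at 28.1, 0.996, 3.39 and 9.95 CPM untreated and at 78.1, 553.9 and 503.7 CPM treated. Its groups did not overlap either, although library 1, at 28.1 CPM, came near library 9, and the log2 fold change was 5.43 ± 0.97 (adjusted p = 0.0119 in edgeR).

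Ifi209 was at 54.1, 1.49, 21.7 and 26.01 CPM untreated and at 158.8, 721.3 and 854.7 CPM treated. Its log2 fold change was 4.80 ± 0.88 (adjusted p = 0.0135 in edgeR), so a member without a motif match passed as well. Ifi211 was at 8.76, 1.49, 2.37 and 2.89 CPM untreated and at 57.6, 143.3 and 198.4 CPM treated, a log2 fold change of 5.32 ± 0.60 (adjusted p = 0.0028 in edgeR), with the reservation on shared sequence given above. Ifi207 was at 81.7, 14.4, 32.2 and 35.0 CPM untreated and at 71.7, 423.2 and 435.6 CPM treated. Here the groups overlapped, since library 1 was above library 9, and the log2 fold change was 3.25 ± 0.68 (adjusted p = 0.0203 in edgeR).

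Mndal, Ifi203 and Aim2 did not pass the test. Mndal ranged from 9.96 to 72.4 CPM untreated and from 35.9 to 128.2 CPM treated (log2 fold change 2.01 ± 0.66, adjusted p = 0.0875 in edgeR), and Ifi203 from 8.47 to 89.7 CPM and from 30.7 to 152.7 CPM (1.80 ± 0.74, adjusted p = 0.154). In both genes the highest untreated value came from library 1. Aim2 stood at 38.2, 18.4, 32.2 and 41.7 CPM untreated and at 16.01, 38.6 and 22.7 CPM treated, so that the ranges overlapped (log2 fold change -0.01 ± 0.36, adjusted p = 0.992). Ifi205, not tested, was at 1.49 to 2.03 CPM in libraries 5, 17 and 21, at 18.0 CPM in library 1 and at 4.83 to 7.68 CPM in treated libraries.

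Without libraries 1 and 9, 8 members passed in spleen PMN-MDSC, among them Mndal (log2 fold change 3.28) and Ifi203 (3.18), and Ifi213 was then at 6.99 and Ifi208 at 6.61. The choice of these libraries favored larger differences, as said above. Without a filter on counts only Ifi208, Ifi204 and Ifi211 passed, and Ifi213 (adjusted p = 0.0923 in edgeR), Ifi209 (0.102) and Ifi207 (0.136) did not. Ifi207 lost its call when library 17, 21, 25 or 29 was left out (adjusted p = 0.0516, 0.0666, 0.0539 and 0.0719), while the other 5 kept theirs with each library left out in turn. Macrophage markers were lower in treated than in untreated spleen PMN-MDSC (65.16 to 176.1 against 415.0 to 1303 CPM, all 6 detected), neutrophil markers overlapped by the ranges given above, and so did monocyte markers (754.3 to 1244 against 552.2 to 1108 CPM, with 4 or 5 of 6 detected in treated libraries). Markers of 4 other cell types were also lower in treated libraries without overlap, those of erythroid cells at 0 to 3.84 against 46.8 to 144.3 CPM, dendritic cells at 0.360 to 3.34 against 17.9 to 34.5 CPM, T cells at 1.08 to 3.71 against 9.96 to 17.02 CPM and B cells at 9.61 to 32.7 against 35.4 to 79.3 CPM. The part of all these markers in the result was not tested. At an adjusted p under 0.001 and at least 2-fold, the threshold of the study's methods, 0 of the 9 members and 0.0413% of all genes passed with edgeR (8 of the 9 had an unadjusted p under 0.05). DESeq2 called 7 members at an adjusted p under 0.05 and 6 at the stricter threshold (Ifi213, Ifi209, Ifi208, Ifi207, Ifi204 and Ifi211), which 7.12% of all genes passed with it.

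**Figure D1:**
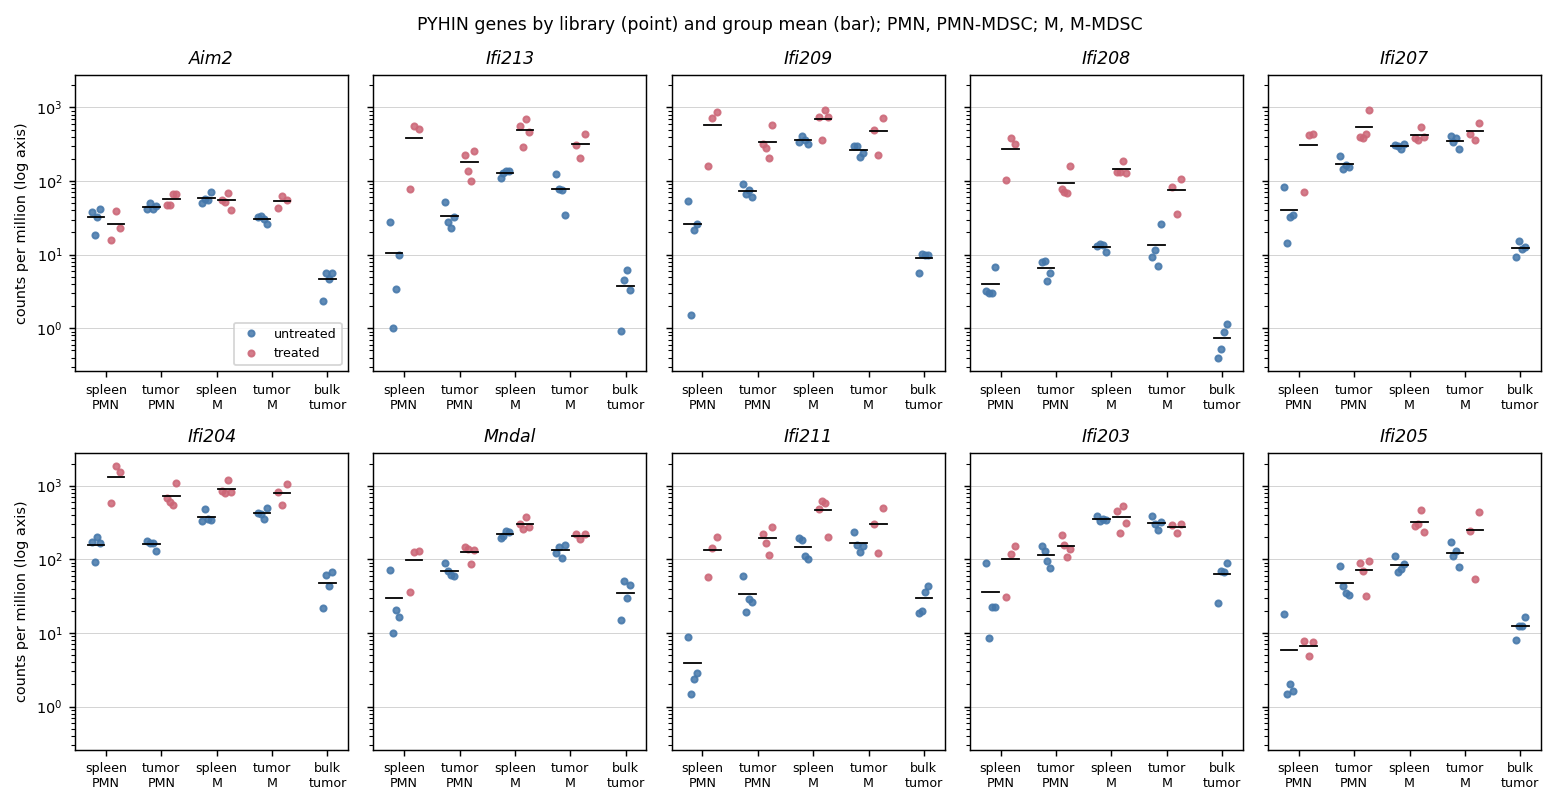
Levels of the 10 PYHIN genes in CPM on a log axis, in the order of the genes along the chromosome; points are libraries (blue untreated, red treated), and black bars are group means. In spleen PMN-MDSC the treated points of Ifi208 (103.1 to 389.1 CPM) sit far above the untreated ones (2.99 to 6.74 CPM), whereas those of Aim2 overlap.

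In tumor PMN-MDSC the same comparison called 6 of 10 members, all higher in treated mice, where 2.29% of 8308 genes were higher. Ifi208 reached the count minimum there through its treated libraries alone, and 5 of the 9 members that reached it in both groups were called. By name these were again Ifi213, Ifi209, Ifi208, Ifi207, Ifi204 and Ifi211. The median log2 fold change was 1.94 over the members and 0.01 over all genes. Ifi208 stood at 7.88, 8.13, 4.40 and 5.69 CPM in untreated libraries 3, 7, 19 and 23 and at 78.3, 70.7, 68.4 and 160.6 CPM in treated libraries 11, 15, 27 and 31. The groups were separate, with library 31 the highest, and the log2 fold change was 3.88 ± 0.40 (adjusted p = 0.000713 in edgeR).

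Ifi204 was at 176.5, 164.7, 167.8 and 129.5 CPM in untreated tumor PMN-MDSC and at 681.0, 607.5, 548.3 and 1100 CPM in treated ones (2.21 ± 0.28 on the log2 scale, adjusted p = 0.00163 in edgeR). Ifi213 went from 22.8 to 51.6 CPM untreated to 99.4 to 253.2 CPM treated (2.42 ± 0.36), Ifi211 from 19.5 to 58.8 to 114.0 to 277.8 CPM (2.55 ± 0.38) and Ifi209 from 59.8 to 91.6 to 203.4 to 569.8 CPM (2.23 ± 0.34). None of these ranges overlapped. Ifi207 stood at 217.1, 143.6, 165.0 and 152.7 CPM untreated and at 392.4, 385.7, 438.8 and 924.7 CPM treated. Its log2 fold change of 1.68 ± 0.34 had an adjusted p of 0.0245 in edgeR, and the call was lost when library 3, 7, 19 or 23 was left out (adjusted p = 0.0509, 0.0819, 0.0872 and 0.0811).

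Mndal ranged from 60.2 to 89.8 CPM untreated and from 87.6 to 147.0 CPM treated, just short of the threshold (0.83 ± 0.21, adjusted p = 0.0548 in edgeR), and passed with DESeq2 (adjusted p = 0.00862). Ifi205 (0.56 ± 0.37), Ifi203 (0.40 ± 0.25) and Aim2 (0.31 ± 0.21) did not pass. Aim2 stood at 41.2, 49.9, 41.96 and 46.5 CPM untreated and at 47.1, 46.8, 65.7 and 65.9 CPM treated, with ranges that overlapped. Macrophage markers were at 7297 to 18600 CPM in treated and 9749 to 13300 CPM in untreated tumor PMN-MDSC, and neutrophil markers at 3460 to 10080 and 1029 to 3858 CPM. Library 31, the highest treated library for all 6 genes called, also held the most neutrophil (10080 CPM) and the fewest macrophage markers, and their part in the result was not tested. At the threshold of the study's methods Ifi208 alone passed with edgeR, as did 0.241% of all genes, whereas all 6 passed with DESeq2, as did 2.32% of all genes.

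In spleen M-MDSC, 8 of 10 members were higher in treated mice, against 10.7% of 8827 genes. The median log2 fold change was 1.19 over the members and -0.01 over all genes. Ifi208 stood at 13.2, 13.9, 13.7 and 10.7 CPM in untreated libraries 2, 6, 18 and 22 and at 133.3, 134.5, 189.1 and 127.4 CPM in treated libraries 10, 14, 26 and 30. The groups were tight and separate, with a log2 fold change of 3.59 ± 0.18 (adjusted p = 7.6e-06 in edgeR).

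Ifi205 was at 111.3, 66.9, 74.5 and 86.4 CPM untreated and at 282.8, 298.4, 462.5 and 234.8 CPM treated. It rose by 1.99 ± 0.24 on the log2 scale in spleen M-MDSC (adjusted p = 0.000558 in edgeR), and it was barely counted in spleen PMN-MDSC. Ifi213 was at 111.3 to 137.8 CPM untreated and 285.9 to 688.4 CPM treated (2.02 ± 0.24, adjusted p = 0.000541 in edgeR). Ifi208, Ifi213 and Ifi205 also passed the threshold of the study's methods with edgeR, where 2.47% of all genes did. With DESeq2 these 3 and Ifi209, Ifi204 and Ifi211 passed it, and 6.91% of all genes.

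Ifi211 was at 101.6 to 195.7 CPM untreated and 203.4 to 627.1 CPM treated in spleen M-MDSC (1.75 ± 0.36), and Ifi204 at 333.8 to 476.1 and 788.9 to 1185 CPM (1.35 ± 0.19). Ifi209 was at 316.1 to 404.6 CPM untreated and 360.7 to 913.2 CPM treated, with library 14 inside the untreated range (1.03 ± 0.25, adjusted p = 0.0189 in edgeR). The smallest increases that passed were those of Ifi207 (0.55 ± 0.15, adjusted p = 0.0284) and Mndal (0.53 ± 0.14, adjusted p = 0.0253). Ifi207 lost its call without library 2, 6, 18 or 22 (adjusted p = 0.0639 to 0.088), Mndal without library 2, 6, 22 or 26 (0.05 to 0.0811) and Ifi209 without library 2 or 22 (0.0569 and 0.0557), which left 5 members called without library 2 or without library 22. In 1 fit over all sorted groups these 3 genes did not pass (adjusted p = 0.471, 0.418 and 0.214).

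Ifi203 and Aim2 did not pass in spleen M-MDSC. Ifi203 stood at 390.3, 330.7, 355.9 and 342.8 CPM untreated and at 450.1, 227.1, 531.7 and 307.8 CPM treated (0.16 ± 0.23, adjusted p = 0.659 in edgeR), so that the treated libraries spread on both sides of the untreated ones. Aim2 stood at 50.6, 57.1, 55.0 and 70.0 CPM untreated and at 56.0, 52.4, 69.2 and 40.3 CPM treated (-0.02 ± 0.17, adjusted p = 0.939). Monocyte markers overlapped between treated and untreated spleen M-MDSC (2503 to 4002 and 3447 to 4511 CPM), macrophage markers were lower in treated libraries (316.4 to 605.0 against 807.0 to 1052 CPM), and neutrophil markers were at 872.4 to 4543 and 2896 to 6851 CPM. Erythroid markers were lower in treated libraries (0.675 to 2.91 against 21.4 to 60.2 CPM). Library 30 held more markers of B cells (133.6 CPM), T cells (37.15 CPM), NK cells (21.67 CPM) and dendritic cells (33.61 CPM) than the other treated libraries. It was also the lowest treated library for Ifi211, Ifi205, Ifi208 and Aim2. The part of these markers in the result was not tested.

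In tumor M-MDSC, 2 of 10 members passed, both higher in treated mice, against 1.82% of 8360 genes. Ifi213 stood at 123.7, 78.9, 76.0 and 34.1 CPM in untreated libraries 4, 8, 20 and 24 and at 309.3, 203.8 and 432.9 CPM in treated libraries 16, 28 and 32. The log2 fold change was 1.90 ± 0.39 (adjusted p = 0.0383 in edgeR). Ifi208 was at 9.35, 11.5, 6.94 and 26.5 CPM untreated and at 83.8, 35.6 and 107.6 CPM treated (2.52 ± 0.52, adjusted p = 0.0389). The groups were separate in both genes, and library 28 was the lowest of the treated. Ifi208 reached the count minimum through its treated libraries alone, which leaves 1 called of the 9 members that reached it in both groups.

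Ifi204 (0.83 ± 0.26, adjusted p = 0.119 in edgeR), Mndal (0.56 ± 0.21, adjusted p = 0.172) and Aim2 (0.72 ± 0.20, adjusted p = 0.0883) had treated values above all untreated ones in tumor M-MDSC without passing. Aim2 stood at 32.4, 33.7, 30.2 and 26.5 CPM untreated and at 43.0, 63.6 and 55.6 CPM treated, and passed with DESeq2 (adjusted p = 0.0469). Ifi209 (0.78 ± 0.35), Ifi211 (0.77 ± 0.43), Ifi205 (0.92 ± 0.57), Ifi207 (0.34 ± 0.24) and Ifi203 (-0.29 ± 0.22) did not pass. Both calls depended on single libraries, as no member was called without library 4, 8, 20 or 32, 1 without library 24 and 5 without library 28. Without libraries 24 and 28 together 4 were called. Library 28 held 28600 CPM of macrophage markers, against 5185 and 10800 CPM in libraries 16 and 32 and 3369 to 8319 CPM in the untreated group. Its T cell markers were at 136.8 CPM, against 7.58 and 21.74 CPM in libraries 16 and 32 and 4.95 to 13.04 CPM in the untreated group. Monocyte markers, all 6 detected, were lower in every treated library (3325, 2085 and 2501 CPM in libraries 16, 28 and 32) than in any untreated one (3634 to 4133 CPM). The part of any of these markers in the result was not tested. At the threshold of the study's methods 0 members passed in tumor M-MDSC with edgeR, as did 0.012% of all genes (6 members had an unadjusted p under 0.05). DESeq2 called 4 members at an adjusted p under 0.05 and Ifi213 and Ifi208 at the stricter threshold, which 2.57% of all genes passed with it.

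**Figure D2:**
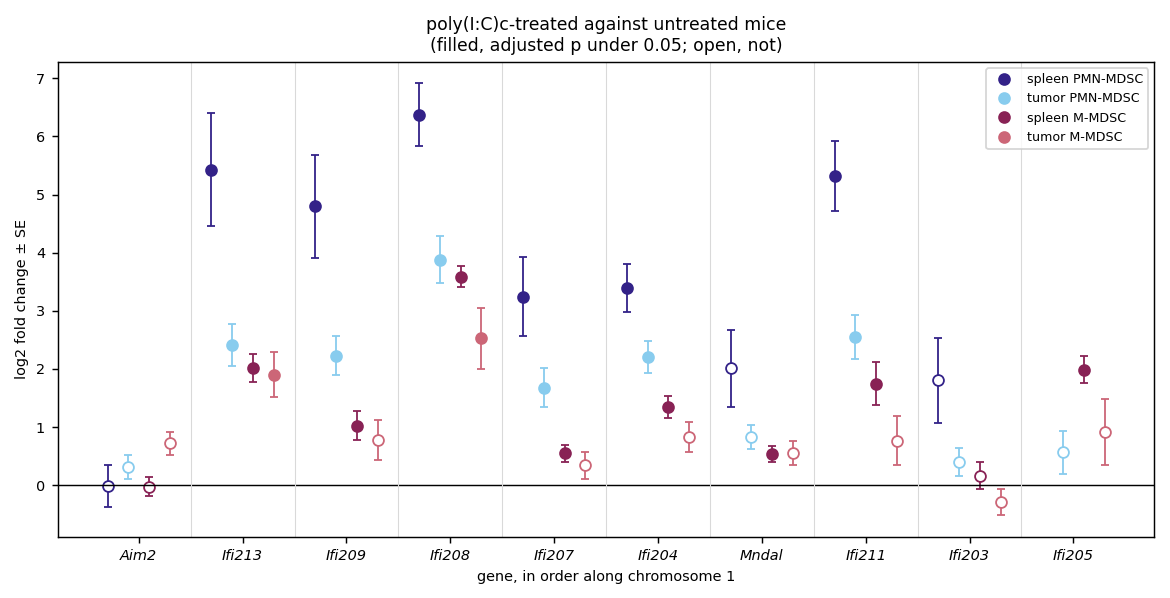
Log2 fold change of each PYHIN gene, treated against untreated mice, with its standard error, in the 4 sorted populations; filled points passed an adjusted p under 0.05. Spleen PMN-MDSC (dark blue) lie highest for Ifi213, Ifi209, Ifi208 and Ifi211 (4.80 to 6.37), and Aim2 and Ifi203 have no filled point.

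Whether the response differed between cell types was tested as an interaction. In spleen, the log2 fold change was smaller in M-MDSC than in PMN-MDSC for 6 of 10 members, against 4.41% of 8417 genes. The difference was -3.87 ± 0.88 for Ifi209 (adjusted p = 0.0147 in edgeR), -3.66 ± 0.72 for Ifi211 (0.00749), -3.51 ± 0.93 for Ifi213 (0.0277), -2.89 ± 0.56 for Ifi208 (0.00709), -2.80 ± 0.70 for Ifi207 (0.0223) and -2.14 ± 0.47 for Ifi204 (0.0125). In untreated spleen, every M-MDSC library was above every PMN-MDSC library for all 6 genes (Ifi208 was too low there to be tested). Ifi204 averaged 157.0 CPM in untreated spleen PMN-MDSC and 374.2 CPM in untreated spleen M-MDSC, and 1318 and 907.8 CPM after treatment.

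Mndal, Ifi203, Ifi205 and Aim2 did not pass this interaction. Without libraries 1 and 9 Mndal (-2.67) and Ifi203 (-2.93) did, and 8 members were called, with the same limit on the choice of these libraries. Ifi213 lost its call without library 14, 18, 21, 22, 25 or 29 (adjusted p = 0.051 to 0.0647) and Ifi207 without library 25 or 29 (0.0535 and 0.0578), so that 4 members were called without either of the latter 2. In tumor, 0 of 10 members had different responses in the 2 cell types by edgeR or DESeq2, and 0.0239% of 8385 genes did (4 members had an unadjusted p under 0.05). These counts hold with the filter on counts, and without it edgeR called 3 members, Ifi209, Ifi207 and Ifi204 (adjusted p = 0.00233, 0.00377 and 0.00253).

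The response was also compared between spleen and tumor. In PMN-MDSC it was larger in spleen for 1 of 10 members, Ifi211, against 0.336% of 8047 genes, whose median difference was -0.11. The difference in log2 fold change was 2.76 ± 0.69 (adjusted p = 0.0379 in edgeR). Ifi211 stood at only 1.49 to 8.76 CPM in untreated spleen PMN-MDSC and reached the count minimum through other groups. It also shared 72.8% of its stretches of 50 letters with other genes, so this call is uncertain. The call was lost without library 3, 5, 11, 15, 17, 19, 21, 23, 25, 27 or 29 (adjusted p = 0.0556 to 0.111), and 5 members were called without library 9: Ifi213, Ifi209, Ifi208, Ifi204 and Ifi211. Ifi213 had a difference of 3.02 ± 0.95 (adjusted p = 0.0994) and Ifi208 of 2.48 ± 0.69 (0.0625) with all libraries, and both passed with DESeq2, which called 4 members. In M-MDSC 0 of 10 members differed between spleen and tumor by edgeR or DESeq2, and 0.79% of 8730 genes did (1 member had an unadjusted p under 0.05), but without the filter on counts edgeR called Ifi205 (adjusted p = 0.0243). For Aim2 the difference there was -0.77 ± 0.26 (adjusted p = 0.179).

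The sum over the 10 genes is less open to how reads were divided among them. In spleen PMN-MDSC it went from 346 ± 170 CPM (SD, n = 4; 152.4 to 565.9) to 3217 ± 1805 CPM (n = 3), with 1135 CPM in library 9 and 4348 and 4168 CPM in libraries 25 and 29. The sum went from 753 ± 149 to 2489 ± 864 CPM in tumor PMN-MDSC (n = 4 and 4), from 2038 ± 95.5 to 4189 ± 972 CPM in spleen M-MDSC (n = 4 and 4) and from 1890 ± 226 to 3232 ± 1203 CPM in tumor M-MDSC (n = 4 and 3). The treated and untreated ranges of this sum overlapped in tumor M-MDSC only, where library 28 stood at 2024 CPM. These sums are a description and were not tested.

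Per exon length, as shares of the summed FPKM (CPM divided by the exon length in kilobases), Ifi204 held 52.0% of the family in untreated and 45.3% in treated spleen PMN-MDSC, and 19.1% in untreated spleen M-MDSC. In untreated tumor its share was 22.6% in PMN-MDSC and 22.7% in M-MDSC. The share of Aim2 in spleen PMN-MDSC went from 10.9% to 1.01% while its own level overlapped between the groups. Ifi208 went from 0.963% to 6.07%, and Ifi209 from 6.60% to 17.9%. In spleen M-MDSC, Ifi211 (22.6%), Ifi204 (21.9%) and Ifi209 (16.7%) were the largest parts after treatment.

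**Figure D3:**
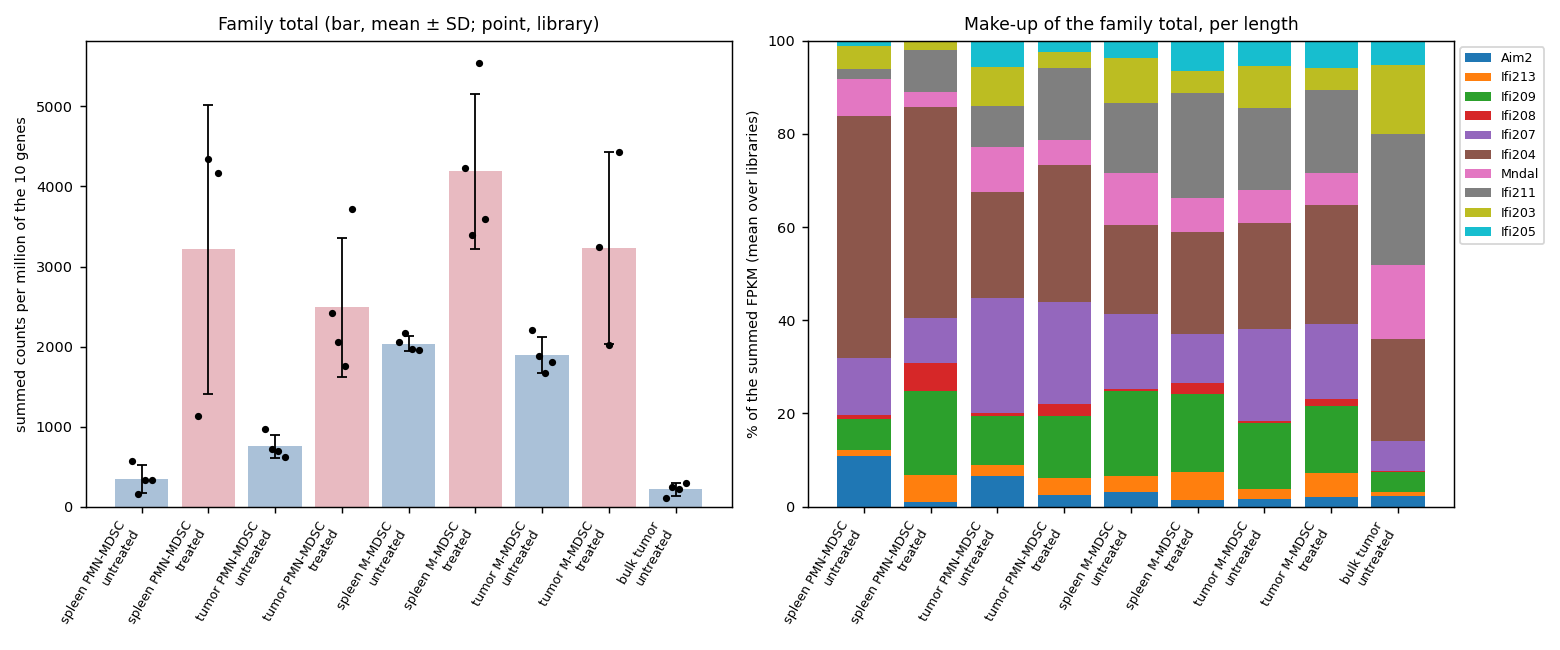
Left, summed CPM of the 10 PYHIN genes by group (bars, mean with SD; points, libraries; axis from 0); right, the mean share of each gene in the summed FPKM. The sum in untreated spleen PMN-MDSC (346 CPM) lies below that in untreated spleen M-MDSC (2038 CPM), and Ifi204 (brown) is the largest part in spleen PMN-MDSC.

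Without treatment, M-MDSC expressed more of the family than PMN-MDSC. In spleen, 8 of 9 members tested were higher in M-MDSC, where 33.4% of 8579 genes were, and the median log2 difference was 2.94 against 0.08 over all genes. Ifi211 differed most (4.77 ± 0.45, adjusted p = 2.3e-05 in edgeR), at 195.7, 181.6, 111.7 and 101.6 CPM in M-MDSC and 8.76, 1.49, 2.37 and 2.89 CPM in PMN-MDSC. Ifi209 (3.40 ± 0.59), Ifi205 (3.39 ± 0.63), Ifi213 (3.16 ± 0.59) and Ifi203 (2.94 ± 0.54) followed, and then Ifi207 (2.51 ± 0.39), Mndal (2.50 ± 0.49) and Ifi204 (0.89 ± 0.22). The ranges of these 8 and of Aim2 were separate between the cell types. Aim2 did not pass the test, at 50.6 to 70.0 CPM in M-MDSC and 18.4 to 41.7 CPM in PMN-MDSC (0.46 ± 0.22, adjusted p = 0.0885). Aim2 passed with upper-quartile scaling (0.71, adjusted p = 0.011) and without library 21 (0.56, adjusted p = 0.0491). Ifi211 and Ifi205 had 3 to 33 and 3 to 68 counts in spleen PMN-MDSC, reached the count minimum through the M-MDSC libraries alone and so had to be higher there, and 6 of the 7 members that reached it in both groups were called. Library 1 held the highest PMN-MDSC value of Ifi211, Ifi205, Ifi213, Ifi209, Ifi203, Mndal and Ifi207. Without it the differences of these genes were 5.55, 5.17, 4.24, 3.98, 3.88, 3.38 and 3.04, and all 8 members were still called.

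In tumor, the same 8 members were higher in M-MDSC, against 5.73% of 7623 genes. The differences ran from 0.88 ± 0.19 for Mndal to 2.30 ± 0.31 for Ifi211, with 1.79 ± 0.18 for Ifi209 (adjusted p = 6.1e-05 in edgeR) and 1.36 ± 0.16 for Ifi204. Aim2 was lower in M-MDSC than in PMN-MDSC of the tumor, where 7.25% of genes were lower. It stood at 32.4, 33.7, 30.2 and 26.5 CPM in M-MDSC and at 41.2, 49.9, 41.96 and 46.5 CPM in PMN-MDSC, without overlap (-0.59 ± 0.18, adjusted p = 0.0448), but did not pass without library 4, 7, 8, 19, 20, 23 or 24 (adjusted p = 0.0522 to 0.116). Ifi213 (1.21 ± 0.34, adjusted p = 0.0359) did not pass without library 4, 7, 8, 19, 20 or 23 (0.0631 to 0.108). In a fit over all sorted groups 4 members passed. Macrophage markers were higher in the PMN-MDSC of these tumors than in their M-MDSC, by the sums given above, and their part in the result was not tested.

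Tumor and spleen of untreated mice were compared within each cell type. In PMN-MDSC, 5 of 9 members tested were higher in tumor, where 29.4% of 7971 genes were: Ifi211 (2.89 ± 0.49, adjusted p = 0.000597 in edgeR), Ifi205 (2.84 ± 0.66), Ifi207 (1.95 ± 0.37), Ifi203 (1.56 ± 0.53) and Ifi209 (1.398 ± 0.54). Ifi207 stood at 217.1, 143.6, 165.0 and 152.7 CPM in tumor and at 81.7, 14.4, 32.2 and 35.0 CPM in spleen. Ifi204 overlapped between the organs, at 129.5 to 176.5 and 92.6 to 198.8 CPM (-0.09 ± 0.20, adjusted p = 0.718). Ifi211 and Ifi205 reached the count minimum through the tumor libraries alone and so had to be higher there, and 3 of the 7 members that reached it in both groups were called. Library 1 was the highest spleen library for all 5, and without it the differences were 4.61 for Ifi205, 3.67 for Ifi211, 2.52 for Ifi203, 2.49 for Ifi207 and 1.999 for Ifi209, and Ifi213 (2.58) and Mndal (2.002) passed too. Ifi209 lost its call without library 3, 7, 17, 19, 21 or 23 and Ifi203 without library 3, 5, 7, 17 or 21 (adjusted p = 0.0522 to 0.111), which left 3 members without library 3, 7, 17 or 21. Macrophage markers were at 9749 to 13300 CPM in tumor and 415.0 to 1303 CPM in spleen PMN-MDSC, neutrophil markers moved the other way, and their part in the result was not tested.

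In M-MDSC, 2 members were higher in tumor than in spleen, against 15.7% of 8298 genes, and 2 were lower, against 12.7%. Ifi205 (0.80 ± 0.22, adjusted p = 0.0192 in edgeR) and Ifi207 (0.48 ± 0.14, adjusted p = 0.0198) were higher, and Aim2 (-0.66 ± 0.15, adjusted p = 0.00671) and Mndal (-0.48 ± 0.16, adjusted p = 0.0401) lower. Aim2 stood at 26.5 to 33.7 CPM in tumor and 50.6 to 70.0 CPM in spleen, and kept its call with each library left out. The other 3 did not: Ifi205 lost it without library 4, 6, 18, 20 or 22, Ifi207 without library 4, 18 or 20, and Mndal without library 2, 4, 6, 18, 20 or 22 (adjusted p = 0.0517 to 0.111). Aim2 alone was called without library 18 or 20, and 2 members without library 4 or 22. In the fit over all sorted groups none of the 4 passed (0.0597 for Aim2). Macrophage markers were higher in the tumor libraries (3369 to 8319 against 807.0 to 1052 CPM), and their part in the result was not tested.

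**Figure D4:**
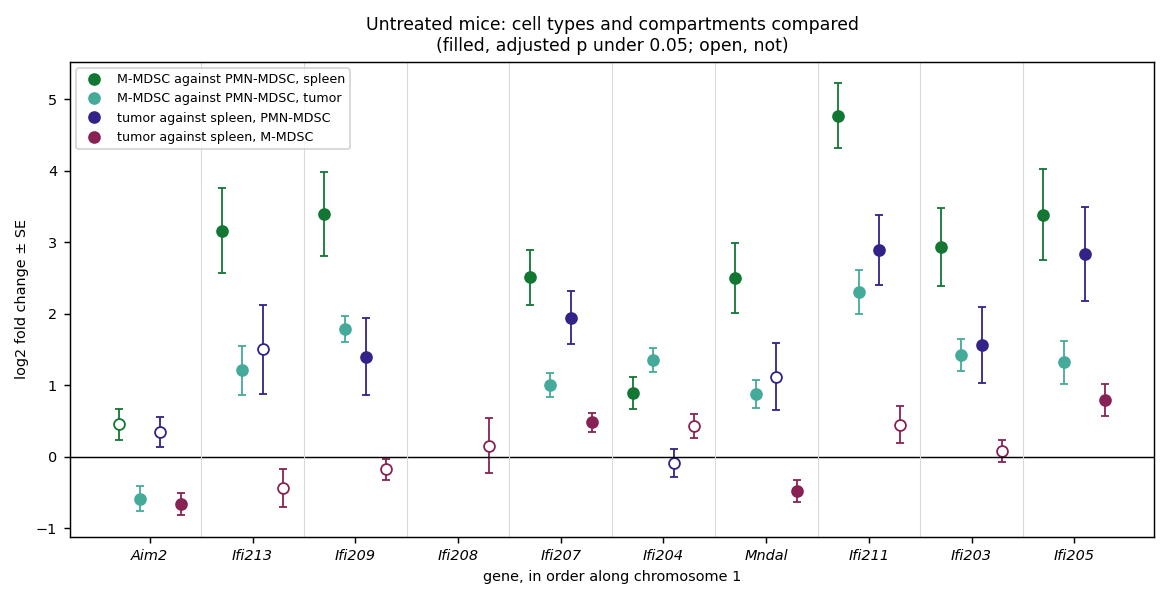
Log2 difference of each PYHIN gene in untreated mice with its standard error, comparing M-MDSC with PMN-MDSC within each organ and tumor with spleen within each cell type; filled points passed an adjusted p under 0.05. In spleen (dark green) Ifi211 differs most between the cell types (4.77), and Aim2 is the one member below 0 for tumor M-MDSC against tumor PMN-MDSC.

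Bulk tumor held little of the family, 218 ± 79.3 CPM in sum (SD, n = 4). Against tumor PMN-MDSC of untreated mice, 8 of 9 members tested were lower in bulk tumor, where 33.3% of 11138 genes were. Ifi207 differed most, at 9.38, 15.4, 12.04 and 12.6 CPM in bulk tumor libraries 41, 42, 45 and 46 against 143.6 to 217.1 CPM (-4.09 ± 0.20, adjusted p = 1.3e-08 in edgeR). Aim2 was at 2.38 to 5.72 CPM in bulk tumor (-3.60 ± 0.26). Ifi211 did not pass, at 18.6 to 43.7 CPM against 19.5 to 58.8 CPM (-0.46 ± 0.35, adjusted p = 0.264). Against tumor M-MDSC, 9 of 9 members tested were lower, where 31% of 11022 genes were, from -2.11 ± 0.31 for Mndal to -5.08 ± 0.24 for Ifi209. Ifi208 had 2 to 10 counts in bulk tumor and was not tested. In bulk tissue, fewer cells of a type and less RNA per cell cannot be told apart, and neutrophil markers summed to 6.48 to 22.01 CPM there (3 or 4 of 8 detected) and monocyte markers to 48.9 to 105.0 CPM (4 to 6 of 6 detected).

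Ordered by mean level over the 9 groups, the members fell into different sequences. Ifi204 was highest in treated spleen PMN-MDSC (1318 ± 658 CPM), followed by treated spleen M-MDSC (908 ± 186 CPM), tumor M-MDSC (799 ± 254 CPM) and tumor PMN-MDSC (734 ± 250 CPM), and neighbours among these 4 overlapped. The lowest of them did not overlap with the next group, untreated tumor M-MDSC (421 ± 57.7 CPM). Ifi203 followed the cell type instead, with the 4 groups of M-MDSC at 379 ± 137 to 273 ± 39.5 CPM, each overlapping with the next, and separate from the next group, treated tumor PMN-MDSC (153 ± 44.99 CPM). Ifi205 was highest in treated spleen M-MDSC (320 ± 99.01 CPM), which overlapped with treated tumor M-MDSC (247 ± 194 CPM), and lowest in untreated spleen PMN-MDSC (5.79 ± 8.17 CPM). Spreads are SDs over 3 or 4 libraries.

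Over the 8 sorted groups, with mean log2(CPM + 1) as the level, the closest pairs were Ifi209 with Ifi211 and Ifi209 with Ifi213 (Pearson r = 0.975 each). Ifi204 ran most closely with Ifi208 (r = 0.959), Ifi203 and Mndal were close (r = 0.957), and Aim2 and Ifi204 were not (r = 0.062). These values describe 8 group means that come from the same libraries, and carry no test. The 8536 genes that averaged at least 25 counts over the sorted libraries were ranked by likeness, and members and genes without a symbol were passed over. The closest to Ifi208 were Ifit2 (0.993), Oas1g (0.987) and Herc6 (0.978), the closest to Ifi204 were Ly6e (0.971), Ifitm3 (0.969) and Xaf1 (0.965), and the closest to Ifi213 were Mx2 (0.981), Fbxw17 (0.978) and Ifi214 (0.973). Those closest to Aim2 were Ulbp1 (0.982), Man2b2 (0.981) and Dbf4 (0.981), and those closest to Ifi203 were Camk2d (0.995), Casp8 (0.995) and Gm11808 (0.992). The closest to the other members were Erp44 (0.996), Ripk3 (0.994) and Psmc5 (0.993) for Ifi205, Ascc3 (0.961), Ddx28 (0.957) and Gm23806 (0.947) for Ifi207, and 9130208D14Rik (0.984), Gm4070 (0.967) and Zup1 (0.956) for Ifi209. For Ifi211 they were Esd (0.987), Nlrc5 (0.952) and Tent4a (0.950), and for Mndal Ube2l3 (0.978), Tent4a (0.977) and Ndufs4 (0.969).

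The cluster holds further PYHIN genes. Ifi206 was higher in treated mice in all 4 populations, by 6.57 ± 0.65 in spleen PMN-MDSC (adjusted p = 0.00195 in edgeR), 3.37 ± 0.39 in tumor PMN-MDSC, 2.03 ± 0.19 in spleen M-MDSC and 1.95 ± 0.29 in tumor M-MDSC on the log2 scale. Its promoter window held the same motif 40 bases before the start. Ifi214 was higher in spleen PMN-MDSC (4.38 ± 0.66), tumor PMN-MDSC (2.71 ± 0.40) and spleen M-MDSC (1.94 ± 0.33), but did not pass in tumor M-MDSC (1.43 ± 0.54, adjusted p = 0.181). In PMN-MDSC of both organs Ifi214 had 1 to 8 counts in untreated libraries, reached the count minimum through the treated ones alone and so had to be higher there. Ifi202b had 0 to 6 counts in any library. Of the 30 other protein-coding genes within 500 kb, which include Ifi206 and Ifi214, only these 2 reached the count minimum in the treatment comparisons.

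A list of 10 genes around the Aim2 inflammasome was read beside the family. Of all genes tested, 6.1%, 2.29%, 10.7% and 1.82% were higher and 5.52%, 1.07%, 8.96% and 1.06% lower in treated spleen PMN-MDSC, tumor PMN-MDSC, spleen M-MDSC and tumor M-MDSC, which is the background of the counts of this list and the next. In spleen PMN-MDSC, 3 of 8 tested were higher in treated mice and 1 lower, with Casp4 (1.66 ± 0.30), an inflammatory caspase, and Casp1 (1.42 ± 0.27), the caspase that the Aim2 inflammasome activates, among the higher ones. Nlrp1b, another inflammasome sensor, was the lower one in the same cells (-2.48 ± 0.54, adjusted p = 0.0223 in edgeR), and reached the count minimum through the untreated libraries alone. In tumor PMN-MDSC Casp1 was higher (1.03 ± 0.21) and no other of the 10 passed. In spleen M-MDSC 4 were higher and 1 lower, among them Nlrc4 (0.94 ± 0.16) and Gsdmd (0.67 ± 0.13), the pore-forming protein cleaved by inflammatory caspases. In tumor M-MDSC Il1b, the interleukin-1β gene, was lower (-2.15 ± 0.30, adjusted p = 0.0111) and no other passed. The list medians were 0.71, 0.19, 0.45 and -0.05 in that order, and the medians of all genes were those given with each comparison (-0.00 in tumor M-MDSC).

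Of 20 genes of cytosolic DNA sensing, 3 of 12 tested were higher and 3 lower in treated spleen PMN-MDSC, 3 of 15 were higher in tumor PMN-MDSC, 7 of 16 in spleen M-MDSC and 2 of 16 in tumor M-MDSC, beside the same shares of all genes. The 3 lower ones in spleen PMN-MDSC (Dnase2a, Dnase1l3 and Prkdc, named after their values were seen) reached the count minimum through the untreated libraries alone, and Dnase1l3 in tumor M-MDSC through the treated ones. Irf7, a transcription factor of the interferon response, was higher in all 4, by 2.75 ± 0.31, 3.88 ± 0.26, 2.95 ± 0.24 and 3.01 ± 0.28. Zbp1, a sensor of Z-form nucleic acid, was higher in spleen PMN-MDSC (3.22 ± 0.51), tumor PMN-MDSC (1.93 ± 0.25) and spleen M-MDSC. The medians of this list were 0.18, 0.17, 0.51 and 0.25. Of 10 interferon-stimulated reference genes, 9, 9, 10 and 4 were higher in the same order and none was lower, with medians of 3.43, 3.25, 3.46 and 2.46. Among these Ifi44 reached the count minimum through the treated libraries alone in all 4 populations.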

How the data were processed

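The authors deposited raw fragment counts per gene, made, per the methods and labels, with ContextMap and BWA on mm10 (GRCm38) and featureCounts (Subread 1.4.6-p3) by strand on Gencode v16, from total RNA amplified by PCR without molecular identifiers. Gene symbols and exon lengths were taken from the GENCODE M21 annotation (GRCm38), promoter sequences from RefSeq (GRCm38.p6). Libraries under 1000 counts were left out, which removed 1 of 35 (10 counts, treated tumor M-MDSC). CPM and FPKM were computed here from the counts. Each comparison was fitted on its own libraries with edgeR 4.0.16 (R 4.3.3; TMM, robust quasi-likelihood F-test, two-sided, adjusted over all genes averaging 25 counts or more; SE from the fold change and F statistic), called at an adjusted p under 0.05. Interactions used the 4 groups concerned. Alternatives were DESeq2 1.42.0, other scalings, filters and thresholds, a common fit, and left-out libraries. The code was tested on simulated data. The members and lists were chosen with earlier results of these data known. Genes named are the members, further PYHIN genes, at most 3 genes of each list per comparison by adjusted p, and the 3 genes most like each member. By the titles, sorted libraries of a group came from different mice, but no label ties the running number of a column to a mouse.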

Additional observations from a re-analysis of the deposited data

Results flagged for a closer look

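In 77 sets of 4 libraries (the 10 genes and their sum in 7 groups), 8 had 1 library far from the other 3 by Dixon's test, which flags about 1 in 20 by chance. In treated spleen M-MDSC, library 26 was the highest for Ifi204 (1185 CPM, the next at 846.9) and Ifi208 (189.1 CPM, the next at 134.5). In treated tumor PMN-MDSC, library 31 was the highest for Ifi207 (924.7 CPM, the next at 438.8) and Ifi208 (160.6 CPM, the next at 78.3). In untreated spleen PMN-MDSC, library 1 stood out for Ifi205 (18.0 CPM, the next at 2.03) and library 21 for Ifi208 (6.74 CPM, the next at 3.18). Library 6 was the highest untreated spleen M-MDSC library for Ifi204 (476.1 CPM, the next at 347.6), and library 41 the lowest bulk tumor library for Ifi209 (5.55 CPM, the next at 9.85).

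The treatment effect differed between groups by the test of the interaction in 7 cases. In PMN-MDSC that of Ifi211 was larger in spleen than in tumor by 2.76 on the log2 scale. In spleen, the effect in M-MDSC minus that in PMN-MDSC was -3.87 for Ifi209, -3.66 for Ifi211, -3.51 for Ifi213, -2.89 for Ifi208, -2.80 for Ifi207 and -2.14 for Ifi204. The limits on the counts of Ifi208 and Ifi211 given above hold for these cases too.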

How the results depend on the processing

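Of 2524 values of single genes under the alternatives, 2255 kept their direction and side of the threshold, 156 lost the call, 71 gained it and 42 changed sign, none of these with an adjusted p under 0.05. No paired analysis was possible because the columns carry a running library number and not the mouse number of the titles. The cause of a change was not tested. For spleen PMN-MDSC the number of members called changed from 6 to 3 without a filter and to 2 of 5 tested with at least 10 counts in every library. For treated tumor M-MDSC it changed from 2 to 4 with DESeq2, to 5 without a filter and to 4 without libraries 24 and 28. For treated spleen M-MDSC one fit over all groups gave 5 instead of 8. Tumor against spleen gave, in PMN-MDSC, 2 instead of 5 members without a filter and 2 with 10 counts, and in M-MDSC 2 instead of 4 with upper-quartile scaling and 0 in one fit. M-MDSC against PMN-MDSC gave 4 instead of 8 in spleen with 10 counts, and 4 instead of 9 in tumor in one fit. The difference in effect between spleen and tumor PMN-MDSC gave 4 instead of 1 with DESeq2 and in one fit, 3 without a filter, 0 with 10 counts and 7 without libraries 1 and 9 (a choice that favored larger differences). That in M-MDSC gave 1 instead of 0 without a filter. The difference between cell types gave 2 instead of 6 in spleen with 10 counts, and 3 instead of 0 in tumor without a filter. At an adjusted p under 0.001 and 2-fold, the treatment comparisons of spleen PMN-MDSC, tumor PMN-MDSC, spleen M-MDSC and tumor M-MDSC gave 0, 1, 3 and 0 with edgeR and 6, 6, 6 and 2 with DESeq2 (a setting chosen after seeing the data), tumor against spleen 1 in PMN-MDSC and 0 in M-MDSC, M-MDSC against PMN-MDSC 3 in each organ, and the differences in effect 0.

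With each library left out, the treatment comparisons in the same order called 5 to 8, 5 to 7, 5 to 8 and 0 to 5 members, tumor against spleen 3 to 7 in PMN-MDSC and 1 to 4 in M-MDSC, M-MDSC against PMN-MDSC 8 to 9 in spleen and 7 to 9 in tumor, bulk tumor 8 against PMN-MDSC and 9 against M-MDSC, and the difference in effect 0 to 5 between spleen and tumor PMN-MDSC, 0 in M-MDSC, 4 to 8 between cell types in spleen and 0 in tumor. The summed CPM of untreated spleen M-MDSC became 1733 with TMM-scaled library sizes and 1664 without Ifi204, that of untreated tumor M-MDSC 1470 and of untreated tumor PMN-MDSC 593 without Ifi204. In spleen PMN-MDSC the sum without Ifi204 was 189 untreated and 1899.6 treated, and with TMM-scaled library sizes that of treated spleen PMN-MDSC (4545) lay above that of treated spleen M-MDSC (3865), the reverse of their order by CPM.

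Changes of sign, in log2 values, were as follows. The treatment effect of Aim2 in spleen PMN-MDSC was 0.0039 without a filter and 0.28 without libraries 1 and 9, and -0.46 to 0.24 with single libraries left out. Leaving out single libraries gave -0.16 to 0.12 for Aim2 and -0.043 to 0.32 for Ifi203 in spleen M-MDSC. For tumor against spleen, Ifi204 in PMN-MDSC was 0.067 with upper-quartile scaling (-0.20 to 0.025 with libraries left out), and in M-MDSC Ifi203 was -0.081 with upper-quartile scaling (-0.064 to 0.18) and Ifi208 -0.28 without library 24 (-0.28 to 0.45). For the difference in effect between spleen and tumor, Ifi205 in PMN-MDSC was 0.016 with DESeq2 and 1.48 without libraries 1 and 9 (-0.49 to 1.57), and in M-MDSC Ifi209 was -0.069 without libraries 24 and 28 (-0.12 to 0.64), Ifi213 -0.22 to 0.42 and Mndal -0.18 to 0.062. For that between cell types, Aim2 in spleen was 0.10 with upper-quartile scaling, 0.13 with 10 counts and 0.016 in one fit (-0.37 to 0.41), Ifi205 in spleen -0.016 without libraries 1 and 9 (-0.28 to 1.96), and Ifi205 in tumor -0.37 to 0.84.

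Depth limits the values of Ifi208 and Ifi213, which had as few as 2 counts in a library, and of Ifi205, Ifi209 and Ifi211, with as few as 3, and intervals of counts are not given because PCR copies are not independent molecules.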
